A study of Mus musculus with 4 samples.

Results

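Endothelial cells that carry RNA of Prox1 were described here in single-cell libraries of the mouse embryonic aorta-gonad-mesonephros region (AGM), the site where haematopoietic stem cells first form. A cell was counted as Prox1-positive endothelial if it held at least 2 UMIs (unique molecular identifiers, each standing for 1 captured RNA molecule) of Prox1, no UMI of Ptprc, at least 3 of the 6 endothelial genes Cdh5, Pecam1, Tie1, Egfl7, Kdr and Esam, and at least 8 UMIs of those genes per 10000. This rule found 353 cells among 17003 endothelial cells and 44168 kept cells in all. They were compared with the 15872 endothelial cells that held no Prox1 UMI, called Prox1-0 below. Prox1, the 6 endothelial genes and Ptprc chose the cells, so their levels are given as description and were not tested.

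Prox1 encodes a homeobox transcription factor that starts and maintains lymphatic endothelial identity. In the mouse embryo the first lymphatic endothelial cells arise from Prox1-positive cells of the large veins, under the venous factor Nr2f2 (COUP-TFII) and the SoxF factor Sox18, and leave the vein in response to VEGF-C, which signals through the receptor Flt4 (VEGFR-3) and its co-receptor Nrp2. Prox1 is also made outside endothelium, for example in parts of the nervous system, in hepatoblasts and in heart muscle. In the GENCODE vM21 annotation of GRCm38 (mm10), Prox1 lies on chromosome 1, minus strand, from 190118035 to 190170714, and the start of the antisense gene Prox1os, from 190170296 to 190217276 on the plus strand, overlaps its 5′ end. The sources used here do not state whether strand was used in counting, so UMIs from the overlap cannot be told apart.

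The embryos were C57BL/6J mice of stage E11.5, with no allele or treatment named. Cells that stained for CD31, the protein of Pecam1, had been sorted on TMRM, a dye that polarised mitochondria take up, and 2 libraries were made from the dim gate (MMPlow) and 2 from the bright gate (MMPhigh). The labels do not say how many embryos were pooled or whether replicate libraries came from separate sorts, so the spread between libraries may be technical. In the gene tests below the library was a block, so level differences between libraries do not enter the p-values and standard errors. These rest on how the within-library difference varied over few libraries, with the spread estimated jointly across genes.

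The 4 libraries held between 51800709 and 120168395 UMIs. The median kept cell held between 3145 and 3741 UMIs in 3 libraries and 24044.5 in MMPhigh 2, which stood apart in depth. Of the 353 Prox1-positive endothelial cells, 141 came from MMPlow 1, 206 from MMPlow 2, 3 from MMPhigh 1 and 3 from MMPhigh 2. Between 1 and 2 of their barcode sequences recurred among the kept cells of another library in 3 of the 12 ordered pairs of libraries, and 0 recurred among its Prox1-positive endothelial cells. Scrublet, a doublet caller, marked 1 of 16700 kept cells in MMPlow 1 and 0 of 4403 and 0 of 3486 in MMPhigh, so it is taken not to have worked there. In MMPlow 2 it marked 9 of the 206 Prox1-positive cells (4.37%), near its share of Prox1-0 endothelial cells (3.94%) and of all kept cells (4.53%).

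The number of Prox1 UMIs per cell was low and uneven. Of the 141 cells of MMPlow 1, 63 held exactly 2 Prox1 UMIs, 43 held 3 to 4 and 35 held 5 or more, up to 14. Of the 206 cells of MMPlow 2, 82 held 2, 56 held 3 to 4 and 68 held 5 or more, up to 16. Prox1-positive cells were deeper than Prox1-0 cells, with median totals of 4278 against 3345.5 UMIs in MMPlow 1 and 4797.5 against 3849.5 in MMPlow 2. A threshold in UMIs is reached more easily in a deep cell, so the comparison was repeated against Prox1-0 cells matched in depth.

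UMIs of Prox1 were also found in blood cells, and whether those cells make Prox1 RNA was not tested. Among blood cells with a Ptprc UMI and no UMI of the 6 endothelial genes, 2 of 466 (0.429%, 95% exact interval 0.0520 to 1.54) and 4 of 570 (0.702%, 0.192 to 1.79) held at least 2 Prox1 UMIs in MMPlow 1 and 2, at median depths of 2828.5 and 3072.5 UMIs. In endothelial cells of the same libraries the shares were 1.81% (1.53 to 2.14) and 2.25% (1.95 to 2.57), at median depths of 3375 and 3896. At full depth the endothelial share thus lay above the blood share in MMPlow 2 and, with intervals that touch only at their ends, in MMPlow 1.

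The 2 MMPhigh libraries held few endothelial cells of any kind, 44 and 19. The share with at least 2 Prox1 UMIs was 6.82% (exact 95% interval 1.43 to 18.7) in MMPhigh 1 and 15.8% (3.38 to 39.6) in MMPhigh 2. The mean was 11.3% ± 6.34 (SD, n = 2) in MMPhigh against 2.03% ± 0.305 (SD, n = 2) in MMPlow, a difference of 9.27 percentage points with an exact two-sided permutation p of 0.333, the smallest that 2 against 2 libraries allow. Blood cells of MMPhigh reached 2.70% (1.52 to 4.42) and 12.7% (9.24 to 16.8) by the same count, inside the endothelial intervals, so the endothelial shares of MMPhigh were not distinguishable from the blood shares with so few cells.

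With each cell thinned to 2000 UMIs and 1 Prox1 UMI counted, no cell being shallower than that, the fractions overlapped. The shares were then 3.59% and 4.36% of endothelial cells in MMPlow against 6.82% and 0% in MMPhigh. After thinning 14 of 466 blood cells (exact interval 1.65 to 4.99%) and 13 of 570 (1.22 to 3.87%) held a Prox1 UMI in MMPlow, so that the endothelial share of MMPlow 1 lay inside the blood interval at equal depth, while that of MMPlow 2 (3.95 to 4.80%) lay above it. The 0 of 19 cells of MMPhigh 2 allow a share of up to 17.6% (upper bound of the exact interval). The difference of the means was -0.567 percentage points, with an exact permutation p of 1. With 2 Prox1 UMIs counted after thinning the shares were 0.862% and 1.07% in MMPlow against 4.55% and 0% in MMPhigh, a difference of 1.31 points (exact permutation p of 1), and the fractions overlapped here too. Whether Prox1-positive endothelial cells are enriched in either TMRM fraction cannot be decided here. With 2 against 2 libraries the test cannot give a p under 0.333 at any depth.

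**Figure D1:**
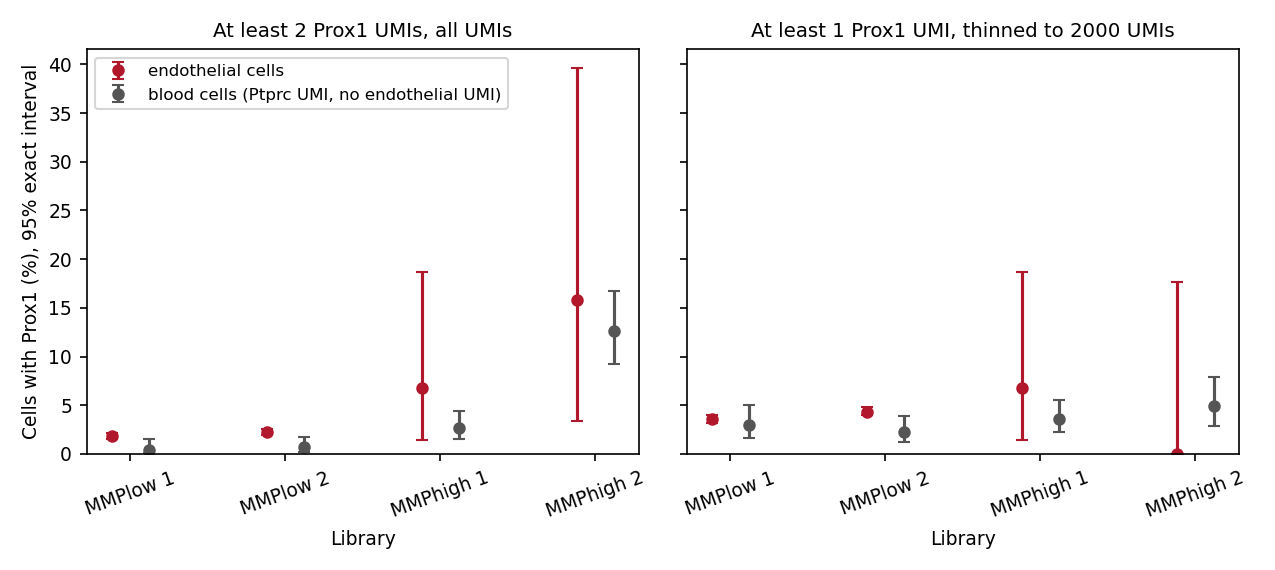
Share of cells with Prox1 UMIs in each library (percent, with exact 95% intervals), for endothelial cells and for blood cells that hold a Ptprc UMI and no endothelial UMI. At full depth the endothelial shares of MMPlow, 1.81% and 2.25%, lie above those of blood cells, while the wide intervals of MMPhigh enclose the blood values of 2.70% and 12.7%.

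The comparison of Prox1-positive with Prox1-0 endothelial cells therefore rests on the MMPlow libraries. UMIs were summed per library and per kind of cell, giving 4 sums with the library as a block, and levels are in CPM, a unit in which 100 CPM equal 1 UMI per 10000 of the sum. Of 15940 genes tested with edgeR's quasi-likelihood test, 1146 passed a Benjamini-Hochberg adjusted p of 0.05, which is 7.19%. Of these, 523 were higher in Prox1-positive cells (3.28% of genes tested) and 623 were lower (3.91%). DESeq2 called 357, of which 57.1% were higher, against 45.6% of the edgeR calls. The median log2 fold change of all genes tested was -0.03.

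The label of a lymphatic endothelium was first checked with its markers other than Prox1, namely Reln, Flt4 and Lyve1. Reln, a secreted glycoprotein that lymphatic endothelium releases to smooth muscle, stood at 61.3 and 108 CPM in Prox1-positive cells of MMPlow 1 and 2 against 2.66 and 3.04 CPM in Prox1-0 cells. Its log2 fold change was 4.87 ± 0.24 (SE), with an edgeR adjusted p of 1.2e-83. Flt4, the VEGF-C receptor, stood at 209 and 211 CPM against 102 and 104, a log2 fold change of 1.00 ± 0.10 (edgeR adjusted p of 1.8e-23). Both genes were separated between the 2 kinds of cell in each library, and both kept their call in 20 of 20 alternative settings.

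Lyve1, the hyaluronan receptor by which lymphatic vessels are often recognised, did not settle the label. It stood at 9.75 CPM (95% counting interval 3.92 to 20.1) in Prox1-positive cells of MMPlow 1 and at 40.8 CPM (30.2 to 53.9) in those of MMPlow 2, against 19.3 and 19.8 CPM in Prox1-0 cells. The interval of MMPlow 1 included the Prox1-0 level, and that of MMPlow 2 lay above it. The log2 fold change of 0.50 ± 0.23 did not pass the test (edgeR adjusted p of 0.22), and it passed in 0 of 19 alternative settings in which the gene was tested. Only 4.96% and 10.2% of Prox1-positive cells held a Lyve1 UMI, against 3.85% and 4.58% of Prox1-0 cells. The cells are therefore named by their Prox1 UMIs below.

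**Figure D2:**
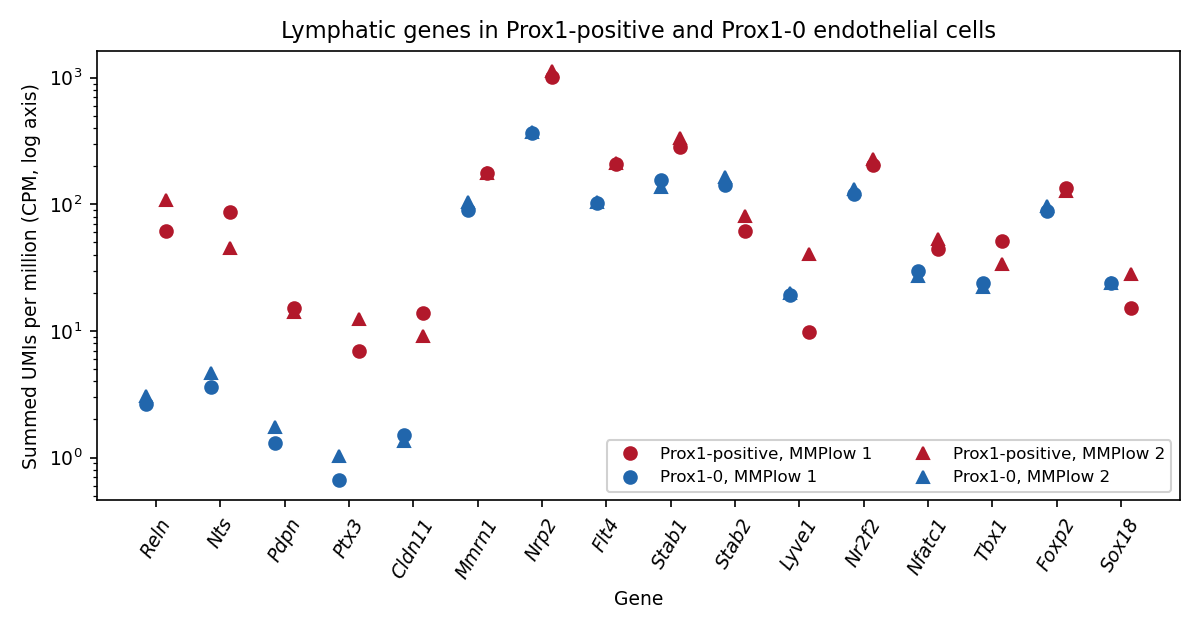
Levels of 16 genes of the lymphatic lists (CPM, log axis) in Prox1-positive (red) and Prox1-0 (blue) endothelial cells, 1 point per library sum of MMPlow 1 (circles) and MMPlow 2 (triangles). Reln, Nts, Pdpn, Ptx3 and Cldn11 lie far above the Prox1-0 points in both libraries, Stab2 lies below, and the Lyve1 points of 9.75 and 40.8 CPM lie on either side of them.

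Among the transcription factors of lymphatic development, 4 of 10 passed the test higher and 0 lower, with a median log2 fold change of 0.39. Nr2f2, which specifies veins and acts with Prox1, stood at 203 and 226 CPM against 121 and 132, a log2 fold change of 0.74 ± 0.09 (edgeR adjusted p of 8.1e-14). Nfatc1, a calcineurin-dependent factor of lymphatic patterning, stood at 44.6 and 53.2 CPM against 29.7 and 27.4. Tbx1, a T-box factor needed for lymphatic growth, stood at 51.5 and 34.1 CPM against 23.8 and 22.3.

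Nfatc1 and Tbx1 both rose, with log2 fold changes of 0.79 and 0.82, and Foxp2 rose by 0.46. DESeq2 kept the call for Nr2f2 but not for the other 3, at adjusted p of 0.18, 0.18 and 0.16. Sox18, which switches on Prox1 in the vein wall, stood at 15.3 and 28.3 CPM against 24.0 and 24.0, so that the libraries straddled the Prox1-0 level (log2 fold change -0.08, edgeR adjusted p of 0.94). Foxc2, the valve factor, stood at 15.3 and 9.15 CPM against 5.89 and 6.88, and its log2 fold change of 0.81 ± 0.38 missed the threshold (edgeR adjusted p of 0.24). Gata2, another valve factor, gave 0.33 ± 0.21 (edgeR adjusted p of 0.50).

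The surface proteins split. Of 19 tested, 5 were higher and 6 lower, with a median log2 fold change of -0.06. The 5 that rose were Nrp2, Pdpn, Stab1, Cldn11 and Flt4. Nrp2, the co-receptor for VEGF-C and for semaphorins, stood at 1015 and 1126 CPM against 365 and 371, a log2 fold change of 1.52 ± 0.06. Pdpn (podoplanin), which holds lymph and blood apart by activating platelets, stood at 15.3 and 14.1 CPM against 1.30 and 1.76, a log2 fold change of 3.20 ± 0.50. These counts are small, 11 and 17 UMIs in Prox1-positive cells. Stab1, a scavenger receptor of sinusoidal and lymphatic endothelium, stood at 286 and 332 CPM against 155 and 137.

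The 6 that fell were Itga1, Stab2, Clec14a, Cd9, Tek and Calcrl. Stab2, the paralogue of Stab1 and a hyaluronan receptor, stood at 61.3 and 81.5 CPM against 143 and 165, a log2 fold change of -1.11 ± 0.12 (edgeR adjusted p of 4.9e-18), while that of Stab1 was 1.09 ± 0.08. The 2 stabilins therefore moved in opposite directions in the same cells, each in 20 of 20 alternatives. Itga1, the collagen receptor subunit alpha 1, stood at 55.7 and 42.4 CPM against 126 and 142. Tek, the angiopoietin receptor Tie2, fell by 0.48 on the log2 scale and Calcrl, the adrenomedullin receptor, fell by 0.30. The calls for Clec14a and Calcrl were absent with DESeq2, at adjusted p of 0.12 and 0.16.

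Secreted and matrix proteins gave 5 higher and 0 lower of 11 tested, with a median log2 fold change of 0.16. Besides Reln these were Nts, Ptx3, Mmrn1 and Sema3a. Nts, the neuropeptide neurotensin, stood at 86.4 and 44.9 CPM against 3.59 and 4.67, a log2 fold change of 3.87 ± 0.25 (edgeR adjusted p of 9.3e-52). Ptx3, a pentraxin of innate immunity, stood at 6.96 and 12.5 CPM against 0.666 and 1.03. Mmrn1, a multimerin of endothelium and platelets, stood at 175 and 176 CPM against 90.3 and 104.

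Sema3a, a repulsive guidance protein of lymphatic valves, rose by less, with a log2 fold change of 0.74 ± 0.20 (edgeR adjusted p of 0.0035), and its DESeq2 adjusted p was 0.26. Angpt2, a ligand of Tek, stood at 64.1 and 34.9 CPM against 49.6 and 34.7 and did not pass. With cells of 3 or more UMIs of a neural gene set left out of both kinds of cell, the higher and lower counts of the 3 lymphatic lists were 4 and 0, 5 and 6, and 5 and 0. With cells of any such UMI left out, which kept 47 and 68 Prox1-positive cells, they were 1 and 0, 3 and 3, and 3 and 0. Calls over all genes fell too. They were 327 higher and 507 lower of 15381 in the first of these settings, and 81 higher and 127 lower of 13881 in the second.

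Reln and Nts UMIs were found in a minority of the Prox1-positive cells, which at this depth does not show that the other cells lack the RNA. A Reln UMI was found in 29 of 141 cells (20.6%) of MMPlow 1 and in 57 of 206 (27.7%) of MMPlow 2, against 0.779% and 0.965% of Prox1-0 cells. A Nts UMI was found in 12.8% and 11.7% against 1.23% and 1.80%. With every cell thinned to 2000 UMIs the Reln shares were 9.22% and 16.5% against 0.396% and 0.518%, and blood cells gave 0.644% and 0.702%. The Reln share of Prox1-positive cells lay above that background, and the share of Prox1-0 cells did not.

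Levels followed the number of Prox1 UMIs in a cell, given here as description because Prox1 chose the cells. In MMPlow 1, Reln stood at 2.66, 13.3, 20.2, 36.5 and 148 CPM in cells with 0, 1, 2, 3 to 4 and 5 or more Prox1 UMIs. In MMPlow 2 the same steps gave 3.04, 8.89, 31.7, 57.4 and 234 CPM. Nrp2 went from 365 to 543, 971, 902 and 1203 CPM in MMPlow 1 and from 371 to 543, 874, 1058 and 1466 CPM in MMPlow 2. Just outside the threshold, 310 and 467 cells with exactly 1 Prox1 UMI lay between the Prox1-0 cells and those with exactly 2, the 63 and 82 cells just inside it, in Reln and Nrp2 of both libraries. The cells with 1 Prox1 UMI also differed in muscle RNA. Against them 7 of 8 muscle genes tested were lower in Prox1-positive cells, with a median log2 fold change of -2.52. Over all genes 224 of 10431 were lower in that comparison. Against Prox1-0 cells 1 of 10 muscle genes was lower, and 623 of all 15940 genes.

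Pdpn was at 13.5, 13.7 and 19.8 CPM in cells of MMPlow 1 with 2, 3 to 4 and 5 or more Prox1 UMIs, and at 2.11, 3.19 and 36.2 CPM in those of MMPlow 2. Its steps rest on 4, 3 and 4 UMIs in MMPlow 1 and on 1, 1 and 15 in MMPlow 2. So few UMIs cannot show whether the libraries differed. Mecom, a transcription factor of arterial and haemogenic endothelium, ran opposite to Reln and Nrp2. It stood at 561 and 596 CPM in Prox1-0 cells and at 144 and 145 CPM in cells with 5 or more Prox1 UMIs. Lyve1 followed no such steps, at 9.90 and 28.9 CPM in cells with 5 or more Prox1 UMIs.

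**Figure D3:**
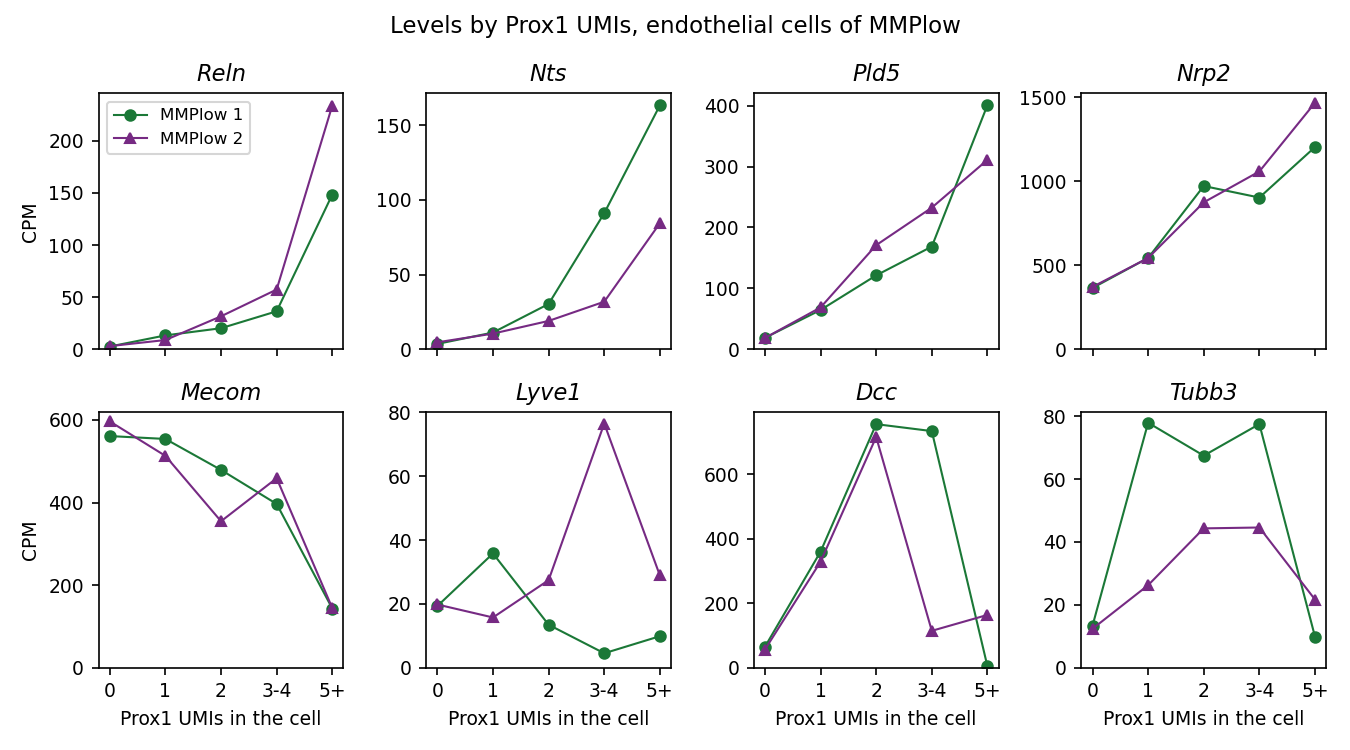
Levels of 8 genes (CPM, linear axes from 0) in endothelial cells grouped by their number of Prox1 UMIs, 1 line per MMPlow library. Reln reaches 148 and 234 CPM and Mecom drops to 144 and 145 CPM in cells with 5 or more Prox1 UMIs, while Dcc and Tubb3, 2 genes of neurons, peak at 1 to 4 Prox1 UMIs. Among cells with 2 Prox1 UMIs, a Dcc UMI was found in 15.9% and 14.6% and a Tubb3 UMI in 14.3% and 8.54%.

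The VEGF receptors differed in direction. Of 17 genes of VEGF-C signalling and processing, 2 were higher, Flt4 and Nrp2, and 4 were lower, Vegfc, Flt1, Nrp1 and Spred1, with a median log2 fold change of 0.00. Nrp1, the co-receptor for VEGF-A, stood at 277 and 243 CPM against 502 and 562, a log2 fold change of -1.09 ± 0.08 (edgeR adjusted p of 1.3e-43). Flt1, the VEGF-A receptor that limits its signal, stood at 379 and 439 CPM against 763 and 782 and fell by 0.93. Vegfc, the ligand itself, stood at 46.0 and 50.7 CPM against 96.9 and 117.

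The proteins that process VEGF-C were at low levels. Ccbe1, which brings the growth factor to its protease, stood at 1.39 and 0.832 CPM against 3.36 and 3.84, and Adamts3, that protease, stood at 8.36 and 9.98 CPM against 9.49 and 8.47. Neither passed the test (edgeR adjusted p of 0.30 and 0.97). The fall of Vegfc and of Spred1, an inhibitor of Ras signalling, was no longer called against Prox1-0 cells of the venous side, at log2 fold changes of -0.44 and -0.36 (edgeR adjusted p of 0.073 and 0.079).

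Venous genes were mixed, with 4 higher and 3 lower of 10 and a median log2 fold change of 0.13. Nr2f2, Nrp2 and Flt4 are shared with the lymphatic lists, and the other gene that rose was Tll1, a metalloprotease of the tolloid family, at 301 and 461 CPM against 156 and 166. Aplnr, the apelin receptor of veins, stood at 80.8 and 98.1 CPM against 158 and 151. Emcn (endomucin) and Cdh13 fell as well, by 0.45 and 1.30 on the log2 scale. Ephb4, the vein receptor for ephrin-B2, gave a log2 fold change of 0.10 ± 0.11 and did not pass.

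Of 20 arterial genes, 8 were lower, 1 was higher and 11 were not called, with a median log2 fold change of -0.82. The 8 were Gja4, Efnb2, Notch4, Sox17, Mecom, Sema3g, Nrp1 and Vegfc. Mecom and Nrp1 kept their call in 20 of 20 alternative settings, but Sox17 kept it in only 10 of 20 and Sema3g in 13 of 19. Gja4 (connexin 37) stood at 11.1 and 26.6 CPM against 47.3 and 45.5, and Efnb2 (ephrin-B2) stood at 65.5 and 99.0 CPM against 147 and 154. Unc5b, a netrin receptor of arteries and sprouting tips, was the gene that rose, at 79.4 and 81.5 CPM against 44.9 and 42.7, with a log2 fold change of 0.86 ± 0.14. Gja5, Dll4 and Hey1 had log2 fold changes of -0.97, -0.87 and -0.81 with edgeR adjusted p of 0.055, 0.061 and 0.10.

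These differences compare with all Prox1-0 endothelium, which holds arteries as well as veins. Against Prox1-0 cells with a Nr2f2 UMI and no UMI of Gja4 or Gja5, the median of the arterial list was 0.06, with 3 genes higher and 3 lower of 18 tested. Nr2f2, Gja4 and Gja5 were used to pick those cells, and a required UMI favours deep ones. Gja4 and Gja5 belong to the arterial list and were at 0 in the comparison cells by choice. Their part in its higher calls and its median is therefore built in. Efnb2 then had a log2 fold change of -0.30 (edgeR adjusted p of 0.16) and Sox17 one of -0.35 (0.22), while Mecom stayed lower at -0.45 (3e-06) and Unc5b higher at 2.03 (2.5e-18). Against the same venous-side cells Reln gave 4.78, Nts 3.66, Pdpn 2.97, Nrp2 1.24 and Flt4 1.02, all past the threshold.

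In the Notch pathway 2 of 19 genes were lower, Notch4 and Jag2, and 0 were higher by edgeR. At an unadjusted p under 0.05 edgeR had 3 higher and 5 lower, beside 2557 of all 15940 genes in either direction. DESeq2 called 0 of the Notch genes. Jag2 stood at 11.1 and 5.82 CPM against 19.8 and 19.7.

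Genes of haemogenic endothelium and stem cells gave 5 lower and 1 higher of 17 tested, with a median log2 fold change of -0.39, counts that did not hold without cells that carried platelet RNA, as given with the megakaryocyte genes. Runx1, the factor that drives the passage from endothelium to blood, stood at 65.5 and 41.6 CPM against 114 and 107, a log2 fold change of -1.13 ± 0.14 (edgeR adjusted p of 1.4e-13). Itga2b (CD41), Angpt1, Ikzf2 and Mecom fell too. Tal1 rose by 0.39 (edgeR adjusted p of 0.044), and DESeq2 did not call it (0.66). Against venous-side Prox1-0 cells Runx1 had a log2 fold change of -0.45 (edgeR adjusted p of 0.067).

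Platelet RNA moved with these differences. Of 9 megakaryocyte genes, 7 were lower in Prox1-positive cells and 0 higher by edgeR (0 higher also at an unadjusted p under 0.05 and with DESeq2). Their summed level was 418 and 339 CPM against 768 and 845, and 0 of the 9 were absent from Prox1-positive cells. Of 9 erythroid genes tested, 5 were lower, with summed levels of 139 and 88.2 CPM against 301 and 210. With cells that held 3 or more UMIs of 7 megakaryocyte genes (Pf4, Ppbp, Itga2b, Gp9, Gp1ba, Gp1bb and Treml1) left out, 900 of 15257 genes were called. Of these, 399 were higher and 501 lower. Such cells made up 26.2% and 19.9% of Prox1-positive cells against 22.6% and 28.7% of Prox1-0 cells, at full depth. The libraries thus differed in direction by that count. Without those cells the haemogenic list had 0 higher and 1 lower, Mecom at -0.86. Runx1 was then at -0.33 and Itga2b at -0.93 (edgeR adjusted p of 0.43 and 0.27). Itga2b is 1 of the 7 genes whose UMIs chose those cells, so the loss of its call is built in. The arterial list kept its counts of 1 higher and 8 lower, and the lymphatic lists theirs of 4 and 0, 5 and 6, and 5 and 0.

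The sort was on mitochondrial activity, so genes of energy metabolism were read in the Prox1-positive cells too. The median share of UMIs from mitochondrially encoded proteins was 3.72% against 3.74% in MMPlow 1 and 4.40% against 4.27% in MMPlow 2, within-library differences of -0.0175 and 0.134 percentage points. Against Prox1-0 cells matched in depth the differences were 0.602 and 0.654 points, and in cells with at least 4000 UMIs they were 0.575 and 0.610. Both libraries were then higher in Prox1-positive cells. Of the 13 genes, 0 passed with edgeR or DESeq2 (0 higher and 1 lower at an unadjusted p under 0.05), 3 were higher against depth-matched cells and 8 against venous-side cells, 6 were lower with cells of 1 Prox1 UMI counted as Prox1-positive, and 0 passed with cells thinned to 2000 UMIs. Over all genes 493 of 13033 were higher against depth-matched cells and 560 of 13557 against venous-side cells. With cells of 1 Prox1 UMI counted as Prox1-positive, 590 of 16039 were lower.

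Fatty acid oxidation, which lymphatic endothelium is known to use under Prox1, showed 0 higher and 2 lower genes of 18 by edgeR, none higher even before adjustment at p under 0.05, and DESeq2 called 0. The 2 were Acadm, the medium-chain acyl-CoA dehydrogenase, and Etfb, an electron carrier subunit, with log2 fold changes of -0.60 and -0.33. Cpt1a, the rate-controlling carnitine transferase, stood at 9.75 and 7.49 CPM against 15.3 and 15.6, a log2 fold change of -0.92 ± 0.35 that missed the threshold (edgeR adjusted p of 0.092).

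In glycolysis 4 of 16 genes were lower and 0 higher by edgeR, 0 higher also at an unadjusted p under 0.05 or with DESeq2. The glucose transporter Slc2a1 stood at 64.1 and 59.1 CPM against 139 and 144, a log2 fold change of -1.24 ± 0.13 called in 20 of 20 alternatives. Slc2a3, Hk1 and Pkm fell by 0.84, 0.56 and 0.20, and DESeq2 called none of these 3.

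Cell cycle genes did not pass. Of 21 S phase genes and 22 genes of G2 and M phase, 0 were called by edgeR or DESeq2. At an unadjusted p under 0.05 edgeR had 3 and 7 lower and 0 higher, beside 2557 of all 15940 genes in either direction. With Prox1 at 4 per 10000 as the limit, 2 S phase genes and 5 of G2 and M phase were lower, and against venous-side cells 1 and 2 were. Over all genes, 739 of 15772 and 484 of 13557 were lower in these 2 comparisons. The medians were -0.16 and -0.15, against -0.03 for all genes, a difference that was not tested.

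**Figure D4:**
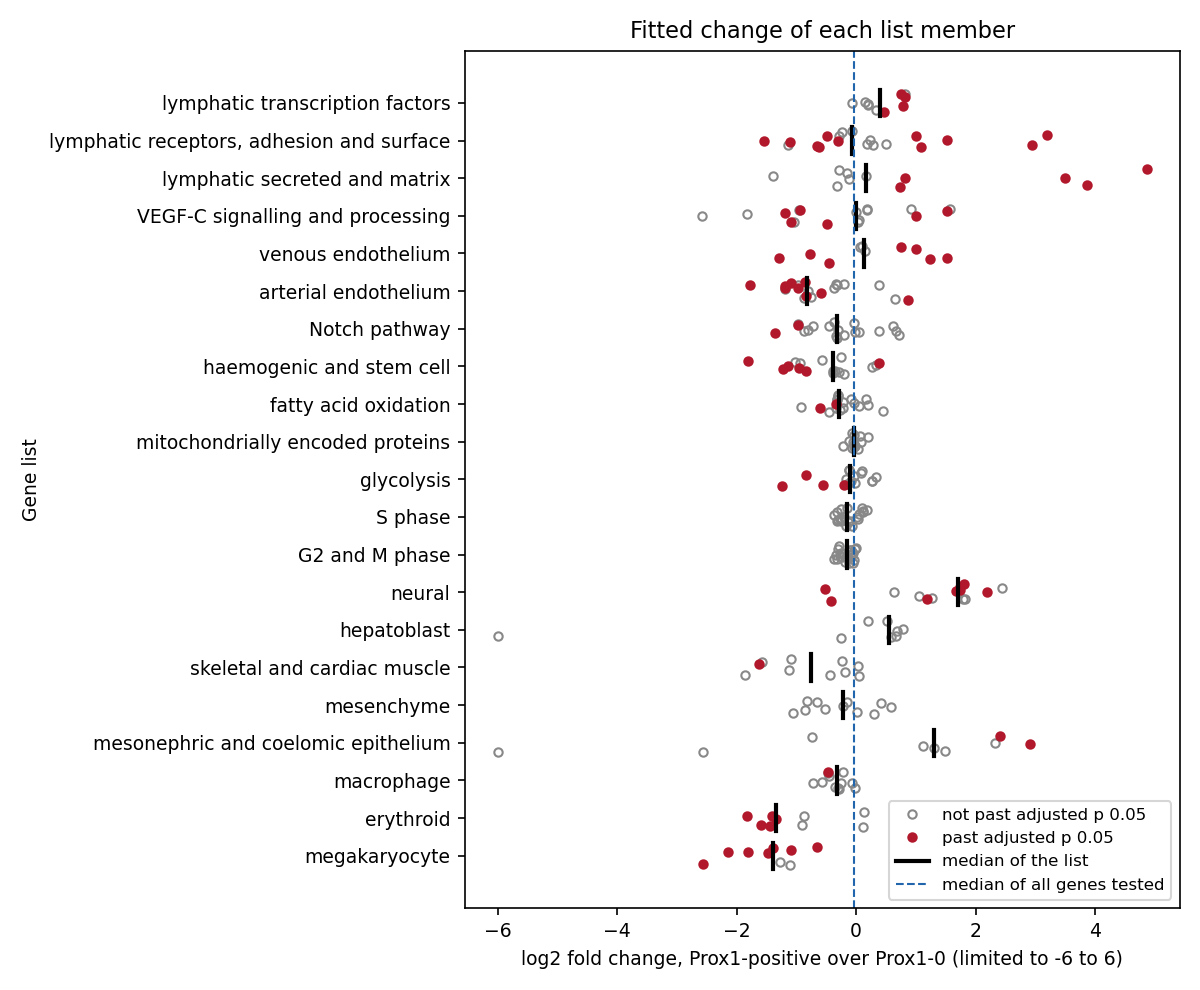
Fitted log2 fold change (Prox1-positive over Prox1-0) of each tested member of the lists with at least 8 tested genes, filled where the edgeR adjusted p was under 0.05, with each list's median (black) and the median of all genes (dashed). The arterial, erythroid and megakaryocyte medians of -0.82, -1.34 and -1.38 lie to the left and the neural median of 1.71 to the right, while the cell cycle lists stay near 0.

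RNA of neural cells moved with the Prox1-positive cells. Of 14 neural markers tested, 6 were higher and 2 lower, with a median log2 fold change of 1.71 and a summed level of 419 and 353 CPM against 283 and 285. Those that rose included Tubb3, Elavl3, Elavl4, Map2 and Dcx, and Stmn2 and Nes fell. None of the 16 listed markers was at 0 in Prox1-positive cells. In a set of 100 genes that mark neural cells of these libraries, built without genes of the lymphatic, venous and arterial lists, 47 of 99 tested were higher and 0 lower, and the summed level was 1061 and 845 CPM against 276 and 250. The set was chosen for low levels in Prox1-0 cells, which favours higher over lower calls, so these counts are a description.

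At least 3 UMIs of that set were found in 21.3% and 19.9% of Prox1-positive cells against 6.46% and 8.25% of Prox1-0 cells and 12.7% and 12.6% of the blood cells. With each cell thinned to 2000 UMIs, at least 1 was found in 42.6% and 34.0% of Prox1-positive cells, 29.8% and 29.6% of Prox1-0 cells and 40.6% and 36.0% of blood cells. By that count, which differs in depth and in the number of UMIs asked for, Prox1-positive cells were near the blood cells, and in MMPlow 2 their interval (27.5 to 40.9%) included the Prox1-0 share. Neural cells made up 0.719% and 0.633% of the kept cells of MMPlow, and 23.3% and 31.5% of them held a Prox1 UMI. Of the blood cells, which were less deep, 3.43% and 4.04% held one. Neural RNA and Prox1 UMIs occurred together in these neural cells, and whether they gave Prox1 UMIs to endothelial cells was not tested. Within the Prox1-positive cells, at least 3 neural-set UMIs were found in 31.0% and 35.1% of those with a Reln UMI and in 18.8% and 14.1% of those without, with overlapping intervals in MMPlow 1 (from 15.3% with and up to 27.2% without). After thinning, at least 1 was found in 44.8% and 43.9% of those with and in 42.0% and 30.2% of those without, and the intervals overlapped in both libraries. The markers Pax2 and Lhx1, listed for mesonephric epithelium and also made by spinal cord neurons, were the 2 of 9 epithelial markers that rose, and Cdh16 and Upk3b of that list were at 0.

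With cells of 3 or more neural-set UMIs left out, 834 genes were called, 327 higher and 507 lower, of which 744 were among the 1146. Tubb3 then gave -0.30 and Elavl4 0.11, neither called, but both helped to define the neural cells from which the set was made. Reln gave 5.49, Nts 3.98, Pdpn 3.73, Nrp2 1.51, Stab1 1.04 and Flt4 0.97, all called. The level of Reln fell in both kinds of cell. It was 52.6 and 80.7 CPM against 1.53 and 1.46, compared with 61.3 and 108 CPM against 2.66 and 3.04 with all cells. With cells of any neural-set UMI left out, 208 of 13881 genes were called, 81 of them higher.

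The 12 genes that rose most, among those with at least 50 UMIs in each library and 20 CPM, were Reln, Nts, Pld5, Scn3a, Apba2, Sox2ot, Igfbpl1, Srrm4, Smoc1, Gria2, Dcc and St18. Pld5, a phospholipase D family member, stood at 214 and 235 CPM against 18.8 and 18.6, a log2 fold change of 3.57 ± 0.12 that was called in 20 of 20 alternatives. It was at 401 and 311 CPM in cells with 5 or more Prox1 UMIs. Smoc1, a secreted calcium-binding matrix protein, stood at 18.1 and 40.8 CPM against 4.16 and 3.89, and Gria2, an AMPA receptor subunit, at 40.4 and 56.6 CPM against 6.82 and 6.73. With cells of 3 or more neural-set UMIs left out, Pld5, Smoc1 and Gria2 gave log2 fold changes of 3.62, 3.48 and 3.15. Cells with fewer such UMIs stayed in.

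Dcc, the netrin receptor of axons, stood at 538 and 368 CPM against 65.1 and 56.7. It was at 755 and 716 CPM in cells with 2 Prox1 UMIs but at 4.95 and 164 CPM with 5 or more. These levels rest on a minority of cells. A Dcc UMI was found in 15.9% and 14.6% of cells with 2 Prox1 UMIs and in 2.86% and 5.88% with 5 or more. Among Prox1-0 cells the share with a Dcc UMI was 6.75% and 7.59%. With cells of 3 or more neural-set UMIs left out its log2 fold change was 0.50 (edgeR adjusted p of 0.46). Sox2ot, Igfbpl1, Srrm4 and St18 belong to the neural set, whose UMIs decided which cells were left out, so the loss of their calls there is built in. Scn3a and Apba2 belong to it too and were still called, at 3.08 and 2.86. By the same rule without those cells and without genes of the set, Fgf14, Plau, Pcsk6, Stxbp6, Ccdc3, Nkain2 and Tfeb entered the leading genes, a choice made after the values were seen. Fgf14, a growth factor homologue of neurons, then had a log2 fold change of 3.30 and Nkain2 one of 2.36. Plau, the urokinase plasminogen activator, then had a log2 fold change of 2.71 and Pcsk6, a proprotein convertase, 2.51.

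**Figure D5:**
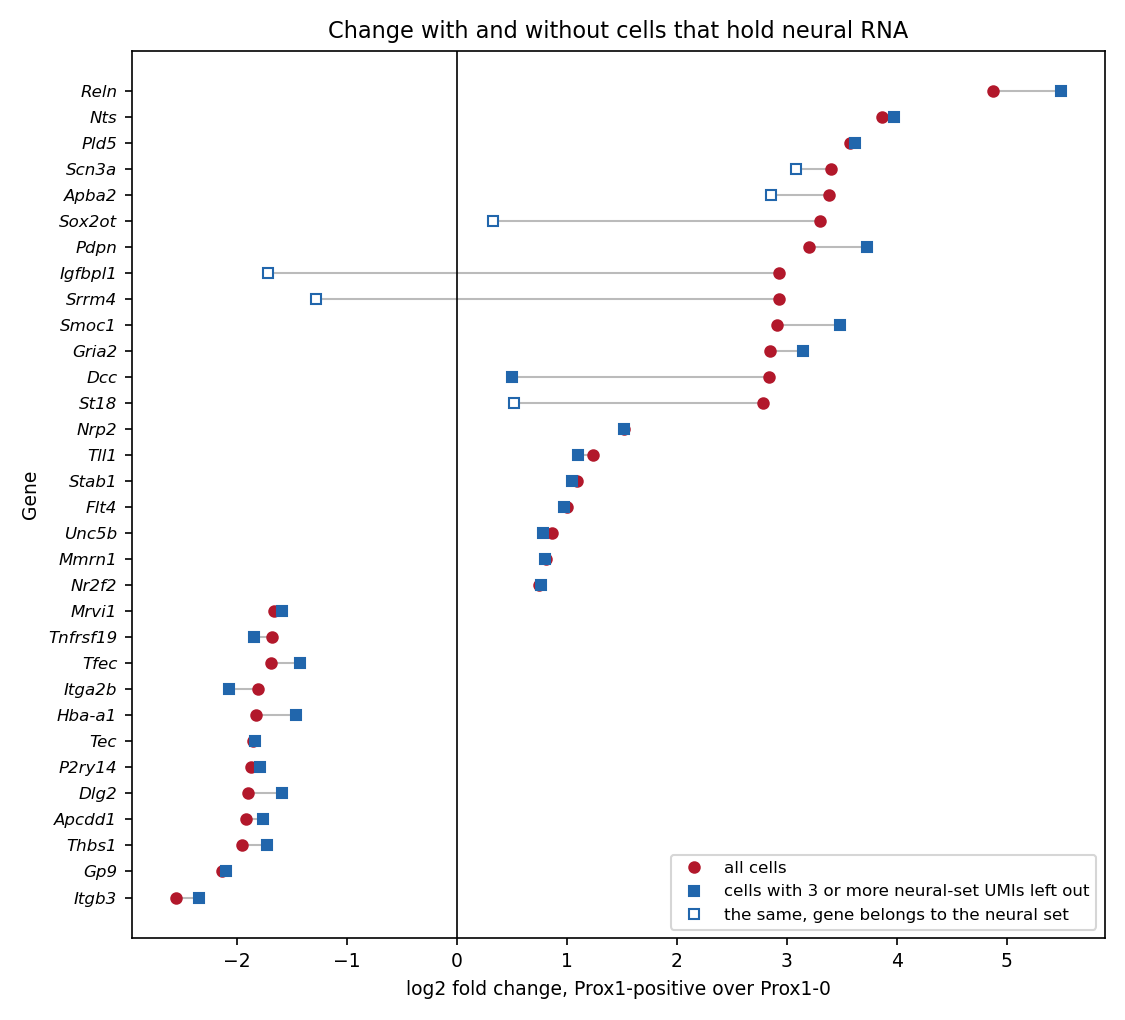
Fitted log2 fold changes of the 24 genes that moved most and of 8 endothelial genes, with all cells (red) and without cells of 3 or more neural-set UMIs (blue squares, open for genes of the set). Reln, Nts and Pld5 keep their distance from 0, Dcc moves from 2.84 to 0.50, and the genes that fell stay below 0.

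The 12 genes that fell most were Itgb3, Gp9, Thbs1, Apcdd1, Dlg2, P2ry14, Tec, Hba-a1, Itga2b, Tfec, Tnfrsf19 and Mrvi1. Itgb3, Gp9 and Itga2b encode platelet glycoproteins and Hba-a1 a globin. Itgb3 stood at 8.36 and 8.32 CPM against 50.5 and 46.9, a log2 fold change of -2.56 ± 0.27. With cells of 3 or more megakaryocyte UMIs left out, Itgb3, Gp9, Thbs1, Dlg2, P2ry14, Tec, Itga2b and Mrvi1 were not called. Gp9 and Itga2b were among the 7 genes whose UMIs chose those cells, so the loss of their calls is built in. Of the others, Itgb3 was then at -0.77, Thbs1 at -0.23, Dlg2 at -0.81, P2ry14 at -0.70, Tec at -1.27 and Mrvi1 at -0.42 on the log2 scale. Apcdd1, Tnfrsf19, Tfec and Hba-a1 were still called. Apcdd1, an inhibitor of Wnt signalling, stood at 5.57 and 8.32 CPM against 28.6 and 26.2, and Tnfrsf19, a TNF receptor family member, at 9.75 and 7.49 CPM against 25.8 and 26.9.

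The endothelial genes that chose both kinds of cell are given as levels, with no test. Esam, a junction adhesion protein, stood at 78.0 and 86.5 CPM in Prox1-positive cells against 175 and 183 in Prox1-0 cells, and Cdh5 (VE-cadherin) at 390 and 321 against 444 and 415. Tie1 stood at 189 and 200 CPM against 197 and 183, and Egfl7 at 653 and 606 against 619 and 595. Pecam1 stood at 379 and 363 CPM against 447 and 448, and Kdr at 506 and 579 against 591 and 634. Esam, Cdh5, Pecam1 and Kdr were thus lower in Prox1-positive cells of both libraries, while Tie1 and Egfl7 overlapped or lay close.

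The 6 Prox1-positive endothelial cells of MMPhigh were too few for a comparison with MMPlow, and their values follow one by one. In MMPhigh 1 a cell of 45768 UMIs held 59 Prox1, 6 Reln, 13 Nts and 14 Flt4 UMIs. In MMPhigh 2 a cell of 46236 UMIs held 47 Prox1, 13 Reln, 19 Nts and 25 Flt4 UMIs. These 2 deep cells also held 27 and 20 UMIs of the neural set. Neural cells made up 28.9% and 29.0% of the kept cells of MMPhigh 1 and 2. At full depth, at least 3 neural-set UMIs were found in 68.5% and 81.2% of blood cells there. The same count was reached by 24 of 40 and 8 of 16 Prox1-0 endothelial cells. Of the cells there that were not endothelial, 5.53% and 21.4% held at least 2 Prox1 UMIs. Reln UMIs occurred in blood cells of MMPhigh as well, in 6.31% and 7.72% after thinning. Nts UMIs then occurred in 0 of 555 and 0 of 324 blood cells. That allows a share of up to 0.662% and 1.13% (upper bound of the exact interval).

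A cell of 8858 UMIs in MMPhigh 1 held 8 Prox1 and 8 Reln UMIs and 20 of the neural set. Another cell of that library held 31933 UMIs, 5 of them of Prox1, 0 of Reln and 452 of the neural set. The other 2 cells of MMPhigh 2 held 2 and 3 Prox1 UMIs and 0 Reln UMIs. Summed over 3 cells each, Reln reached 162 and 176 CPM in MMPhigh 1 and 2 (95% counting intervals 88.4 to 271 and 93.5 to 300), each sum resting mainly on 1 or 2 cells. With these 2 libraries added to the comparison, 226 of 7427 genes tested were called, and without MMPlow 1 or MMPlow 2 only 17 or 5.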

How the data were processed

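The authors deposited whole-number UMI counts per gene and barcode, not normalized. Cell Ranger 7.0.1 wrote the matrices, per the file headers. The submitters' processing notes name Cell Ranger 2.1.1 and mm10, and which version made the counts is not settled. Per the labels' protocols the kit was 10x Genomics 3' v3. A barcode entered as a cell from 2000 UMIs and 1000 genes upward, with a share below 25% for the 13 protein genes of the mitochondrial genome. Doublets were scored with Scrublet in scanpy 1.11.5 but not removed.

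Cells are not replicates, so counts were summed per library and kind of cell where both kinds had at least 20 cells. The sums were tested with edgeR 4.0.16 in R 4.3.3 (TMM, filterByExpr, library as block, robust quasi-likelihood F-test, two-sided, Benjamini-Hochberg over all genes, threshold 0.05). DESeq2 1.42.0 was an alternative. The script was tested on simulated counts. Shares carry exact (Clopper-Pearson) binomial 95% intervals, and levels exact Poisson ones. Both cover counting error only.

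Thinning drew 2000 UMIs from each cell. The neural set is the 100 genes with the largest excess in neural cells (at least 4 neural markers, no endothelial rule gene and no Ptprc UMI) and at most 5 CPM in Prox1-0 endothelial cells. Named genes were the list members and the 12 largest changes in each direction, with the same sign in both libraries, at least 50 UMIs in each and 20 CPM. Members and lists were chosen with earlier results of these data known. Ccl21a and Aldoa each match more than 1 identifier and were left out.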

Additional observations from a re-analysis of the deposited data

How the results depend on the processing

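The count of 1146 genes stayed within 1.5 times in 14 of 20 alternatives. It was 357 with DESeq2, 535 with cells thinned to 2000 UMIs, 728 with the endothelial genes at 16 per 10000, and 226 with libraries of at least 3 cells of each kind added. It was 208 without cells of any neural UMI and 433 against cells with 1 Prox1 UMI, both chosen after seeing the data. Leaving out each library in turn from the comparison with MMPhigh added gave 5 to 506, the 5 without MMPlow 2, 17 without MMPlow 1 and 420 without MMPhigh 2. In the MMPlow comparison no test was left without 1 library. The share of endothelial cells that are Prox1-positive, MMPhigh against MMPlow, was 9.27 points higher in MMPhigh, -0.567 after thinning with 1 Prox1 UMI counted, 1.31 with 2 (added after seeing the data), 5.87 with 1 Prox1 UMI at full depth, 12.1 in cells of at least 4000 UMIs and 4.79 to 13.8 with each library left out.

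The mean difference in mitochondrial share, 0.0582 points, was -0.0740 with Prox1 at 1 UMI, 0.593 with at least 4000 UMIs, 0.166 with endothelial genes at 16 per 10000 and 0.661 against venous-side cells. It was -0.0182 with Prox1 at 3 UMIs, -0.0130 without any neural UMI, and 0.100 to 0.146 without cells of high mitochondrial share, neural UMIs, high doublet scores or megakaryocyte UMIs. It was 0.628 against depth-matched cells, 0.466 with Prox1 at 4 per 10000 and 0.219 against cells with 1 Prox1 UMI. Each library alone gave -0.0175 or 0.134. The log2 fold change of Sox18 reversed to 0.17 with MMPhigh added and to 0.040 with Prox1 at 1 UMI. With libraries left out it ran from -0.62 to 0.65 for Sox18 (0.23 without MMPlow 1, and with MMPhigh added 0.26, 0.12 and 0.00038 without MMPlow 2, MMPhigh 2 and MMPhigh 1) and from -0.92 without MMPlow 2 to 1.00 without MMPlow 1 for Lyve1, and without MMPlow 2 but with MMPhigh added it was 0.041 for Hk1 and 0.21 for Dlg2. Foxc2 went to -0.036 and Tubb3 to -0.040 against cells with 1 Prox1 UMI, and Tubb3 to -0.30 without cells of 3 or more neural UMIs. The cause was not tested. Of 76 named genes called, 75 (not Tubb3) never changed sign in these 20 alternatives, neural genes not being counted where neural UMIs chose the cells, and 15 were called in each. With the replicate number as a block the share was higher in MMPhigh in both pairs, by 9.27 points on average (exact sign-flip permutation p of 0.5, the smallest for 2 pairs). The labels do not say that the numbers mark shared embryos or sorts. The comparison of MMPhigh with MMPlow within Prox1-positive cells, with or without that block, was not run, since its minimum was set at 5 cells per library and MMPhigh held 3.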
